A study of Mus musculus with 2 samples.

Results

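The cytosolic ribosomal protein genes encode the proteins of the ribosome's large (60S) and small (40S) subunits. RNA sequencing gave 1 wild-type (WT) library, from C57BL/6 mice aged 7 weeks, and 1 deficient library, from C57BL/6 mice aged 6 weeks without diacylglycerol kinase ζ (DGKζ-/-). Naive CD8 T cells isolated by kit from spleens of either genotype had been stimulated for 24 hours on plates coated with antibodies against CD3 and CD28. The labels give neither the number of animals per library, nor their sex, nor how the allele was made. The genes were chosen by symbol, as every gene called Rpl or Rps with a number and at most a letter and a further digit, together with Rplp0, Rplp1, Rplp2 and Rpsa. This gave 84 of the 24013 genes in the table. They comprise 46 genes of the large subunit, 31 of the small subunit and 7 paralogs (Rpl3l, Rpl7l1, Rpl10l, Rpl22l1, Rpl39l, Rps4l and Rps27l). Some ribosomal genes, such as Fau and Gnb2l1, carry other names and are described separately.

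A ribosome holds a single copy of nearly every ribosomal protein, so cells make these proteins in matched amounts. Their mRNAs are among the most abundant of a growing cell. Most begin with a 5′ terminal oligopyrimidine (TOP) tract, a run of C and T read by LARP1, through which mTORC1 controls their translation. Naive T cells enlarge and build ribosomes after activation. DGKζ phosphorylates diacylglycerol and so limits the Ras and protein kinase C branch of T cell receptor signalling.

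Promoter windows of RefSeq (GRCm38.p6, 250 bases before to 50 after the annotated start) were listed for 60 of the 80 genes compared below. A run of at least 8 pyrimidines within 50 bases of the annotated start was found in 50 of them (83.3%). It was found in 39.3% of all 27025 genes listed, a background not limited to the genes compared in these libraries. The runs are shown because such a tract is the feature that these genes are known to share. They are printed, with the run in capitals, for the 5 genes whose difference between the libraries was highest and the 5 where it was lowest, in falling order. Those of Rpl10 and Rpl41 extend to the end of the listed window.
Rpl22l1 (chr3:28805499-28805528, plus strand): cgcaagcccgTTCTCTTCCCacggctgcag
Rps16 (chr7:28350631-28350660, plus strand): caattcacacgTCCCCTCTCaggcttcgac
Rps10 (chr17:27635227-27635256, minus strand): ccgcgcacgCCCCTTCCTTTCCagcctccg
Rpl10 (chrX:74270836-74270865, plus strand): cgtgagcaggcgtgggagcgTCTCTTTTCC
Rpl27 (chr11:101442193-101442222, plus strand): gtcatcctcgCTCCTCCCTCCacacgccgg
Rps15 (chr10:80292446-80292475, plus strand): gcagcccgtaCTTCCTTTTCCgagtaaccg
Rpl31 (chr1:39367824-39367853, plus strand): ctcgccacaCCTCTTCCTCCTCgcctcccc
Rps27 (chr3:90213632-90213661, minus strand): ttccgctttcgCTCCTTTCCggcggtgacg
Rpl41 (chr10:128549119-128549148, minus strand): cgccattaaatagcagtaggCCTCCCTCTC
Rpl11 (chr4:136053358-136053387, minus strand): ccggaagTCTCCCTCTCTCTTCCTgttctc
Both ends of the order thus carry such a run, and the longest of the 10 printed belongs to Rpl11, the gene with the lowest difference. The annotated start need not be the true first base, so a run is a description and not a mapped TOP tract.

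The motif CCGGAAG, the core bound by ETS factors such as GABP, was searched on both strands of the same windows. It occurred in 25 of the 60 genes (41.7%), against 9.93% of all listed genes, whether compared in these libraries or not. Its reverse complement is CTTCCGG, whose first 5 letters can overlap a pyrimidine run. Of the 5 genes with the highest difference only Rps10 held it. It is shown in capitals, to show its form, for the 2 highest of the genes that held it, Rps10 and Rplp2, and for 3 of the 4 genes that were not higher in the deficient library.
Rps10 (chr17:27635256-27635285, minus strand): gagccgcgcagcCCGGAAGagacgctgcgc
Rplp2 (chr7:141447531-141447560, plus strand): ggaaatgtcttcCTTCCGGtgcaccctttt
Rpl31 (chr1:39367847-39367876, plus strand): cctccccgtgacCCGGAAGttgtacggcta
Rpl41 (chr10:128549207-128549236, minus strand): ctagtaaggcagCCGGAAGtcgctgtctcg
Rpl11 (chr4:136053370-136053399, minus strand): aaggccacggggCCGGAAGtctccctctct
The motif AAGATGGC, a core of YY1 sites, was found on either strand in 6 of the 60 genes (10%, against 3.19% of all genes), and TATAAA in 7 (11.7%, against 15.7%). The median log2 ratio was 0.17 for genes with a pyrimidine run and 0.14 for those without. It was 0.16 with the ETS core and 0.19 without it, so neither feature split the genes into groups far apart.

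Almost all of these genes were slightly higher in the deficient library, by nearly the same amount, though 12 of 80 were at or below 0 when the libraries were scaled to equal totals. The difference is given as the log2 ratio, log2((deficient + 10)/(wild type + 10)) of the normalized counts, and genes averaging 50 or more normalized counts over the libraries were compared, which holds for 80 of the 84. Their median log2 ratio was 0.17, with quartiles at 0.12 and 0.22, against a median of 0.055 and quartiles at -0.14 and 0.22 for all 10518 genes compared. At equal totals the medians were 0.083 and -0.033. Of the 80 genes, 76 had a log2 ratio above 0, where 58.2% of all genes compared did. At equal totals 68 of 80 were above 0, where 44.8% of all genes were. With 1 library per genotype no difference could be tested, and whether this shift exceeds the variation between mice or cultures is unknown.

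The size of the shift was small. At least 2-fold differences were found in 0 of the 80 genes in either direction, against 1.3% of all genes compared that were 2-fold higher and 1.29% that were 2-fold lower. A smaller difference, of at least 25% higher or 20% lower (a log2 ratio of 0.32 in either direction), was also counted. By it, 6 of 80 genes were higher, which is 7.5% against a background of 13.8%, and 0 were lower, against a background of 12.8%. These counts depended on the scaling. At equal totals 2 genes were higher and 1 lower, and with the ratios recentred on the median of all genes 3 were higher and 1 lower. The 6 genes were Rpl22l1, Rps16, Rps10, Rpl10, Rpl27 and Rpl12. Of these, Rpl22l1 (0.37) and Rps16 (0.33) stayed past the limit at equal totals, Rps10 (0.31) did not, and Rpl11 (-0.39) was the gene on the lower side. Rpl12, at a log2 ratio of 0.33, lay just inside that limit and Rplp2, at 0.31, just outside it. The middle 50% of the 80 genes spanned 0.099 on the log2 scale, whereas that of all genes compared spanned 0.36 and that of the 1220 genes with a mean of at least 4000 spanned 0.26. Of the 80 genes, 58 lay within 0.1 of their own median.

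**Figure D1:**
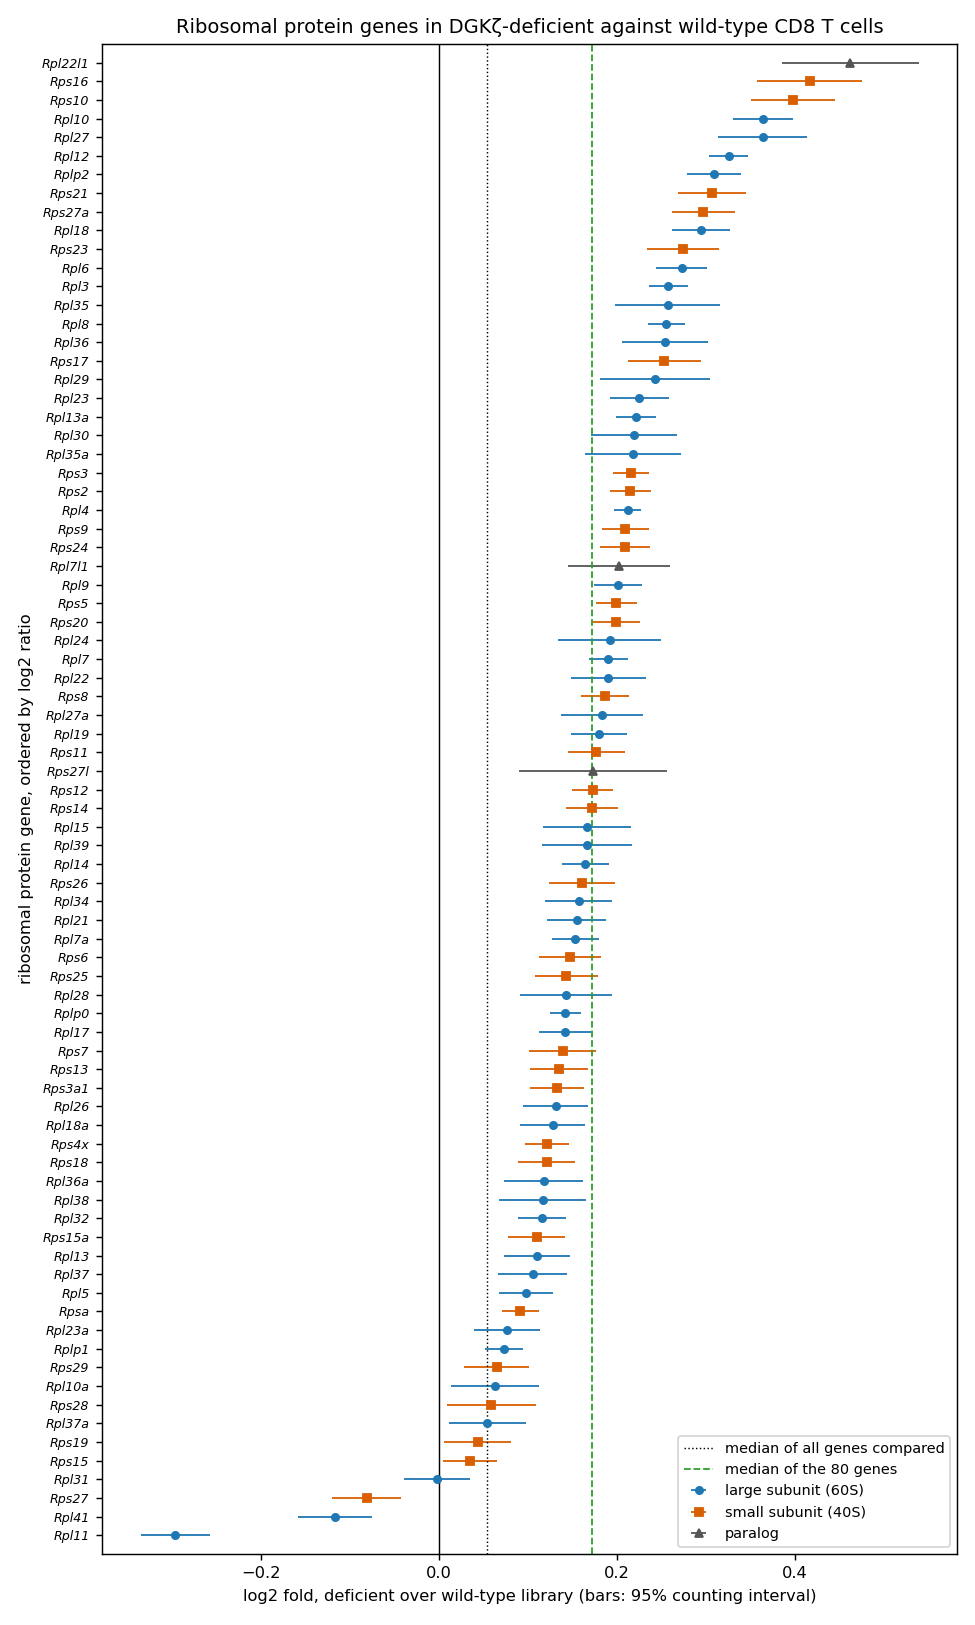
Fold between the libraries for each of the 80 ribosomal protein genes compared (log2 scale, horizontal axis), ordered by log2 ratio, with 95% counting intervals as bars and symbols by subunit. The points form a narrow band around the dashed median of 0.17, with Rpl22l1 at the upper end and Rpl11, Rpl41 and Rps27 below 0 at the lower end. At equal totals all points move down by 0.090.

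Counting error was small against most of these differences. Between 1620 and 48890 reads per gene were counted in the deficient library, the shallower of the pair. The exact 95% counting interval of the fold (Clopper-Pearson, counting error only) lay above 1 for 76 of 80 genes, against a background of 35.8%. It lay below 1 for 3 genes, against 21.7%. Both counts use the authors' size factors and were not made again at equal totals. There every log2 fold moves down by 0.090, so fewer intervals lie above 1. At equal totals 68 of 80 log2 ratios were above 0, where 44.8% of all genes were. High counts narrow such intervals, and among the 1220 genes with a mean of at least 4000, 65.9% had an interval above 1, 20.6% an interval below 1 and 72.8% a log2 ratio above 0. The 78 ribosomal protein genes at that level had 74, 3 and 74. At the limit of 25% higher or 20% lower the same class gave 14.5% and 6.07%, against 5 and 0 of the 78 genes, and at 2-fold it gave 0.738% and 0.246%, against 0 and 0. The median log2 ratio of those 1220 genes was 0.13, compared with 0.17 for the 78 ribosomal protein genes at that level, so well-read genes as a class also stood above 0.

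**Figure D2:**
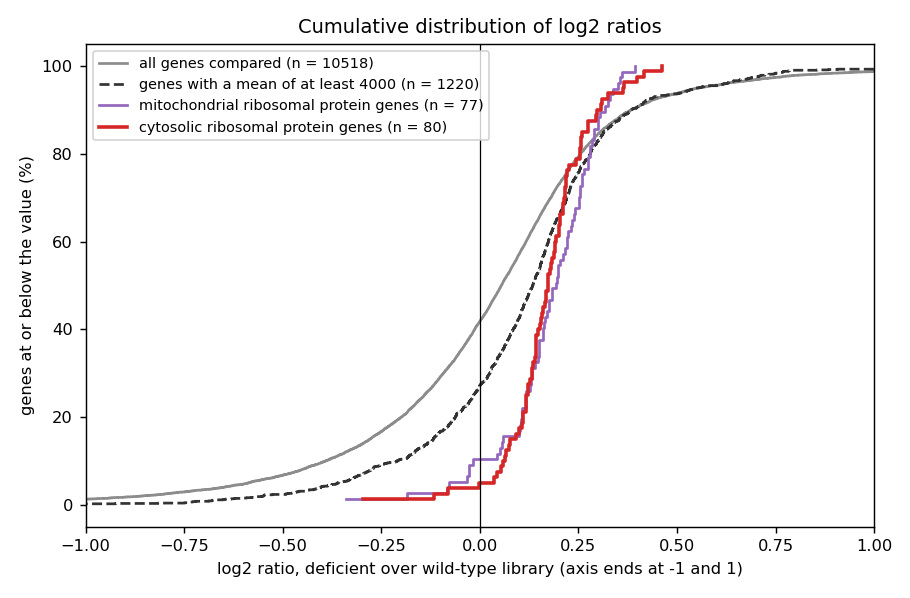
Cumulative share of genes (percent, vertical axis) by log2 ratio for the 80 cytosolic and 77 mitochondrial ribosomal protein genes, the 10518 genes compared and the 1220 genes with a mean of at least 4000. Both ribosomal curves rise steeply between 0 and 0.4, while the curve of all genes is wide and meets that of the cytosolic genes near 0.22. Equal totals would move every curve left by about 0.090, and the median of the cytosolic genes would stay above 0.

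The summed level of the 84 genes moved in the same direction. They took 6.44% of the reads of the wild-type library (exact 95% interval 6.43% to 6.44%) and 6.82% of those of the deficient library (6.81% to 6.83%). This share does not use the authors' size factors. In normalized counts the sum was 1.13-fold higher in the deficient library (1.12 to 1.13), and still higher at equal totals (log2 ratio 0.084). The sum over large-subunit genes was 1.13-fold and that over small-subunit genes 1.12-fold that of the wild-type library. The median log2 ratio was 0.17 for both the 46 large-subunit and the 31 small-subunit genes, so the subunits did not separate. A higher share of ribosomal protein mRNA per cell and a higher share of cells rich in it cannot be told apart in bulk RNA.

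The genes largely kept their order of abundance. The Spearman correlation of normalized counts between the libraries over the 80 genes was 0.99 and the Pearson correlation of their log2 values was 0.99, both across genes of the same 2 libraries and given only as a description. The 10 most read genes of the wild-type library held 30.1% of the ribosomal protein reads there and 30.3% in the deficient library. Per coding length, which leaves out untranslated parts that also collect reads, the genes ranged in the wild-type library from 6808 (Rpl7l1) to 145153 normalized counts per kilobase (Rpl41, whose coding sequence of 78 bases is the shortest). The median was 34226 per kilobase in the wild-type and 36156 in the deficient library. Rplp1 followed Rpl41 with 110957 and 116738, and Rps12 came next with 80926 and 91247, in the same order in both libraries.

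By normalized counts, not corrected for length, the 5 most abundant genes were Rpl4, Rplp0, Rps3, Rpl8 and Rpsa. Rpl4, a protein that lines the exit tunnel of the large subunit, had normalized counts of 72362 (wild type) and 83846 (deficient), a log2 ratio of 0.21. Rps3, which sits at the mRNA entry of the small subunit, was read at 40022 and 46492 (0.22). Rpl8, a core protein of the large subunit, was read at 38999 and 46572 (0.26). Rpsa, a small-subunit protein also known as the laminin receptor, was read at 40295 and 42939.8 (0.092, and 0.0020 at equal totals). Abundance did not order the differences, as the Spearman correlation of mean count and log2 ratio over the 80 genes was -0.027.

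**Figure D3:**
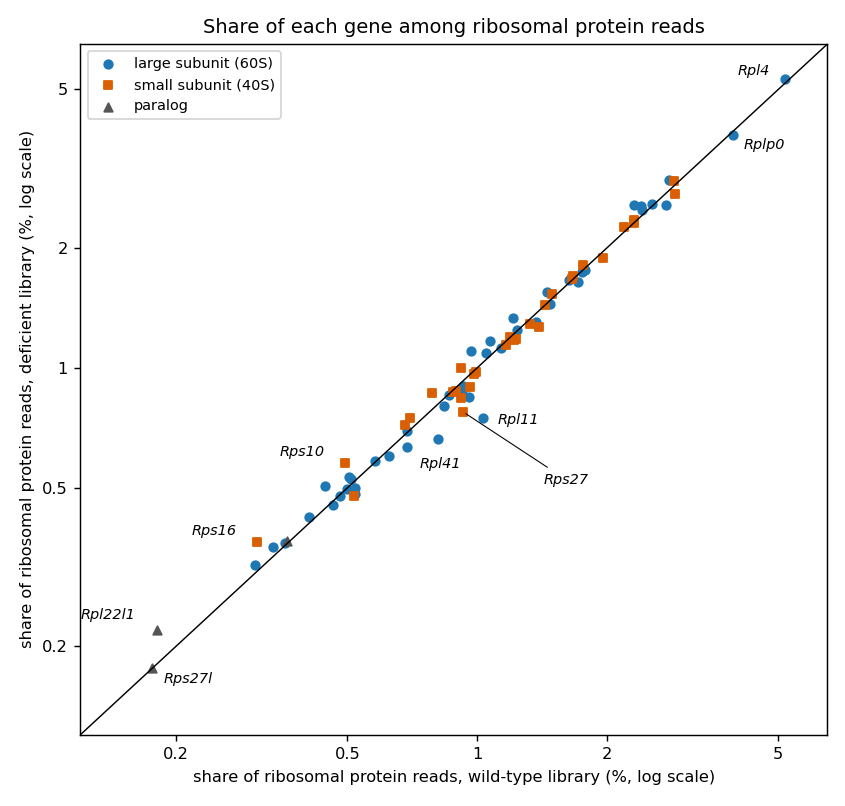
Share of each of the 80 genes among the reads of the 84 ribosomal protein genes (percent, log scales), in the wild-type library (horizontal axis) and the deficient library (vertical axis), with the line of equal shares. Rpl22l1, Rps16 and Rps10 lie above the line and Rpl11, Rpl41 and Rps27 below it, and this does not depend on how the libraries are scaled.

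Within the large subunit, the gene farthest from the rest was Rpl11. Its normalized counts were 14436 (wild type) and 11761 (deficient), from 24757 and 6858 reads, 1.23-fold lower in the latter (1.19 to 1.26; log2 ratio -0.30). Rpl11 and Rpl5 bind the 5S rRNA together, and as a free particle they bind and inhibit MDM2, the ubiquitin ligase of p53. Rpl5 was read at 19137 and 20494 (log2 ratio 0.099). Rpl11 thus stood at 75.4% of Rpl5 in the wild-type and 57.4% in the deficient library, a ratio 0.761 times that of the wild-type library (counting interval 0.735 to 0.787). As a ratio of genes within a library, it is free of the size factors.

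Rpl41, the shortest protein of the ribosome, was also lower, with 11322 and 10448 (log2 ratio -0.12, 1.08-fold lower, 1.05 to 1.12). Rpl31, a protein near the exit of the tunnel, was read at 13344 and 13327, with a counting interval of the fold from 0.973 to 1.02 that includes 1. At the upper end, Rpl10, which joins the large subunit late in its assembly, was read at 13481 and 17357 (1.29-fold higher, 1.26 to 1.32). Rpl27 was read at 6191 and 7969.5 (1.29-fold, 1.24 to 1.33). Rpl12, a protein at the base of the stalk, was read at 32226 and 40396 (log2 ratio 0.33, counting interval of the fold 1.23 to 1.27). These 3 stayed above 0 at equal totals, at log2 ratios of 0.27, 0.27 and 0.24.

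The stalk proteins recruit the GTPases of translation, with Rplp0 as the base and Rplp1 and Rplp2 as paired arms. Rplp0 was read at 54853 and 60548 normalized counts (log2 ratio 0.14). Rplp1 was read at 38280.2 and 40275 (0.073, and -0.016 at equal totals). Rplp2 was read at 16916 and 20964 (0.31). The arms therefore differed in their shift, and Rplp2 stood at 44.2% of Rplp1 in the wild-type and 52.1% in the deficient library (1.18-fold, counting interval 1.15 to 1.21).

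Among the small-subunit genes, Rps16 and Rps10 were highest. Rps16, whose protein lies near the decoding site, was read at 4307 and 5752 normalized counts (1.34-fold, 1.28 to 1.39), and Rps10, in the head of the subunit, at 6881 and 9069 (1.32-fold, 1.28 to 1.36). Rps6, the protein phosphorylated by the S6 kinases of mTORC1 and ERK signalling, was read at 13867 and 15361 (log2 ratio 0.15), near the median of all ribosomal protein genes. Rps15 was the lowest small-subunit gene still above 0, at 19467 and 19949 (0.035, and -0.054 at equal totals). Rps27, a zinc-binding protein, was read at 12930.1 and 12228 (log2 ratio -0.081, 1.06-fold lower, 1.03 to 1.09).

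Reads of Rps27 could not be separated from those of a near copy. The row of Rps27rt, its retrotransposed copy, held 22061 and 7102 reads, exactly those of an Rps27 row. The rows of Rpl26 and Gm15772 likewise shared 22246 and 8287 reads. Many ribosomal protein genes have processed pseudogenes, so their counts may include or lack shared reads, which is uncertain for each of them. Where pseudogenes had rows of their own the reads were usually few, such as 398 and 162 for Rpl14-ps1, but Rpl34-ps1 held 20540 and 7783, close to the 20660 and 7836 of Rpl34.

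The paralogs fell into a well-read and a barely read group. Rpl22l1, a paralog that Rpl22 is known to repress, had the highest log2 ratio of the compared genes (0.46), with 2518 (wild type) and 3471 (deficient) normalized counts (1.38-fold, 1.31 to 1.45). Rpl22, which is needed for the development of αβ T cells, was read at 9594 and 10950.2 (0.19). Rpl22l1 thus stood at 26.3% of Rpl22 in the wild-type and 31.7% in the deficient library (1.21-fold, counting interval 1.14 to 1.28). Rps27l, a paralog known as a p53 target, was read at 2462 and 2778 (0.17), and stood at 19.0% and 22.7% of Rps27 (1.19-fold, 1.12 to 1.27), with Rps27 as the lower partner.

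Rpl7l1, a paralog of Rpl7 with a role in large-subunit assembly, was read at 5045 and 5807 normalized counts (log2 ratio 0.20), beside 35527 and 40549 for Rpl7 (0.19). Their ratio was 14.2% and 14.3%, with a counting interval of its change from 0.967 to 1.05. The 4 genes under the mean of 50 were all paralogs. Rpl39l, a paralog made mainly in male germ cells, was read at 25.7 and 36.0 (44 and 21 reads), against 6702 and 7524 for Rpl39. Rps4l was read at 36.7 and 27.4 (63 and 16 reads), against 27389 and 29801 for Rps4x. Rpl3l, the paralog of striated muscle, was read at 5.25 and 5.14 (9 and 3 reads), against 33484 and 40052 for Rpl3. Rpl10l, the autosomal testis copy of Rpl10, had 0 reads in both libraries, where a count of 0 allows up to 3 reads, or 1.75 and 5.14 normalized counts.

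**Figure D4:**
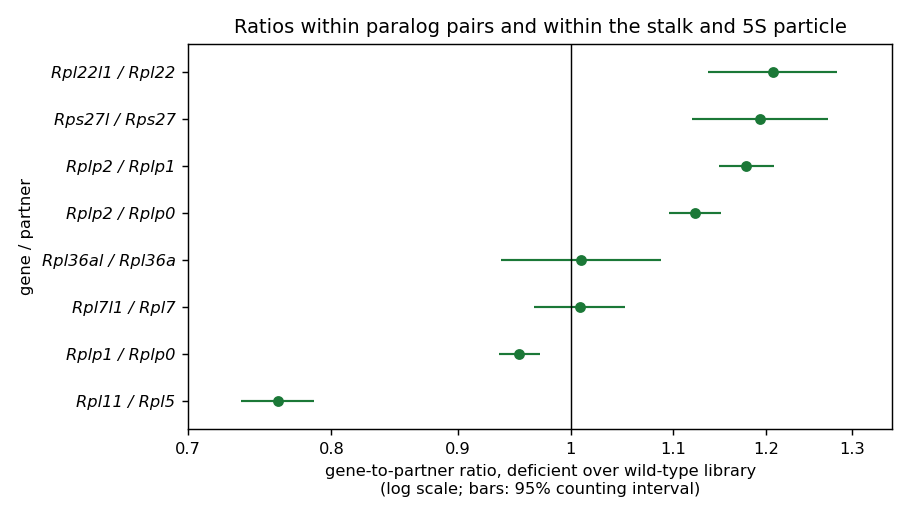
Ratio of a gene to its partner in the deficient library divided by the same ratio in the wild-type library (log scale), with 95% counting intervals, for pairs with at least 100 reads in the deficient library. Rpl22l1 to Rpl22, Rps27l to Rps27 and the 2 ratios with Rplp2 lie above 1, Rpl11 to Rpl5 lies at 0.761 and Rplp1 to Rplp0 at 0.953, and Rpl7l1 and Rpl36al stand at 1 against their partners within counting error.

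Of the least abundant genes that are no paralogs, Rpl29 was read at 4253 and 5033 normalized counts (log2 ratio 0.24) and Rpl35, a protein at the tunnel exit, at 4684 and 5599 (0.26). The 4 X-linked genes were Rpl10, Rps4x (log2 ratio 0.12), Rpl36a (8733 and 9479, 0.12) and Rpl39 (0.17), with a median of 0.14. Xist, which silences an X chromosome in female cells, stood at 14.0 (wild type) against 9206 (deficient) normalized counts, so by their transcripts the libraries also differed in sex. The part of sex in the values of these 4 genes was not tested.

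Ribosomal proteins with other names showed the same direction. Fau encodes a small-subunit protein fused to a ubiquitin-like peptide, as Rps27a encodes one fused to ubiquitin. Rps27a was read at 12804 and 15738 normalized counts (log2 ratio 0.30) and Fau at 6034 and 7326 (0.28), so both lay close together above the median of 0.17. Gnb2l1, the scaffold RACK1 on the small subunit, was read at 54218 and 61626 (0.18), and Rpl36al, the paralog of Rpl36a, at 1787 and 1959 (0.13).

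Lists of genes of translation and of ribosome assembly had medians above that of all genes (0.055), and the list of mTORC1 and MYC regulators had one below it. Among genes with a mean of at least 4000 the median was 0.13. At that level quality control (0.12) and RNA polymerase I and 5S rRNA transcription (0.099) were not above it. The other lists of translation and assembly were. The counts that follow stand beside a background, over all genes compared, of 58.2% above 0, 13.8% at least 25% higher and 12.8% at least 20% lower; among genes with a mean of at least 4000, 72.8% were above 0. Of 20 further genes whose mRNAs carry a TOP tract, 18 had a log2 ratio above 0 (median 0.23), with Vim (0.64) and Eef1d (0.34) at least 25% higher and Pabpc1, the poly(A)-binding protein, at least 20% lower (-0.38). The 36 initiation factors had a median of 0.23, with 31 above 0, 8 at least 25% higher (background 13.8%) and 2 at least 20% lower (12.8%). Eif2s3x, the X-linked γ subunit of eIF2, was at 0.87, Eif2s2 at 0.48, Eif3c at 0.44 and Eif4g3 at -0.89. As the libraries differed in sex by Xist, Eif2s3x may differ by sex as well as genotype, which was not tested. The 15 elongation and termination factors had a median of 0.13, with Eef2k, the kinase that inhibits Eef2, at 0.41, Eef1g at 0.27 and Gtpbp1 at -0.59. No gene of these lists differed 2-fold.

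All 14 chaperones and importers of ribosomal proteins had a log2 ratio above 0 (background 58.2%; median 0.19), led by the importins Ipo7 (0.34) and Ipo5 (0.27), with Pdcd2l at 0.26 and Pdcd2, a chaperone of Rps2, at 0.24. Of 72 genes of ribosome assembly and rRNA processing compared, 68 were above 0 (background 58.2%; median 0.19). At least 25% higher were 9, a share near the background of 13.8%, and 1 was at least 20% lower, against 12.8%. Tsr3 stood at 0.46, Nip7 at 0.43, Eif6 at 0.42 and Nol6 at -0.39. The 28 genes of RNA polymerase I and 5S rRNA transcription had a median of 0.11, which was 0.022 at equal totals, and 19 were above 0, a share between the background of 58.2% and the 72.8% of well-read genes. Taf1b (0.45), Polr1c (0.45), Polr3c (0.36) and Tcof1 (-0.33) differed most. The median of the 15 genes of ribosome quality control was 0.15, with Rnf10, a ubiquitin ligase of small-subunit proteins, at -0.65, Zfp622 at 0.31, Ankzf1 at 0.31 and Gltscr2 at 0.30. At equal totals the medians were 0.14 for the TOP list and for initiation and 0.041 for elongation and termination. They were 0.096 for chaperones and importers, 0.098 for assembly and 0.064 for quality control. The counts above 0 of these lists and the next were not made again at equal totals, where every log2 fold moves by -0.090. Not all 14 chaperones and importers stay above 0 there.

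Of the 23 regulators of mTORC1, MYC and TOP mRNAs compared, 7 had a log2 ratio above 0, against 58.2% of all genes, and the median was -0.032 (-0.12 at equal totals). Eif4ebp1, the mTORC1 target that blocks cap-dependent initiation, was the 1 gene of all these lists past 2-fold, at 1022 and 3284 normalized counts (3.21-fold higher, 3.01 to 3.43). Its relative Eif4ebp2 stood at a log2 ratio of -0.44, Rptor at -0.51 and Rps6ka3, an ERK-activated S6 kinase, at -0.73. Myc was read at 8613 and 8590.4 (log2 ratio -0.0038) and Larp1 at 15485 and 15476 (-0.00081). The 77 mitochondrial ribosomal protein genes, encoded in the nucleus for another ribosome, had a median of 0.19 (0.10 at equal totals) with 69 above 0, against 58.2% of all genes. Of these, 7 (9.09%) were at least 25% higher and 1 (1.3%) at least 20% lower, both shares below the background of 13.8% and 12.8%, and Mrpl45 (0.39), Mrpl34 (0.36), Mrpl12 (0.35) and Mrpl13 (0.35) were highest.

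The authors' deposited table, made from the same libraries, gave a log2 fold change for 83 of the 84 genes. Over all its rows the median was -0.016. The largest absolute value over all rows was 0.67, a narrower range than that of the log2 ratios used here (Xist 8.59). The lowest and highest values that follow are those of the 83 genes. In the authors' deposited table the lowest value was -0.23 (Rpl11) and the highest 0.34 (Rpl22l1). Its p-values are not given, because 1 library per genotype holds no measure of the variation between mice or cultures.

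The libraries differed beyond genotype. With 1 row per gene they held 37211969 (wild type) and 13464169 (deficient) reads. The targeted gene, Dgkz, had 6714 and 2591 normalized counts, 2.59-fold less in the deficient library; counts of whole transcripts do not show which part of the gene is deleted. The precursor of ribosomal RNA, Rn45s, took 2.81% and 2.53% of reads. All 5 markers listed for CD8 T cells were well read and lower in the deficient library, with sums of 31261 and 22072 normalized counts. They were Cd8a, Cd8b1 and the CD3 chains Cd3d, Cd3e and Cd3g, which are not particular to CD8 T cells. All 10 B cell markers were lower in the deficient library, with sums of 3142 and 2303, and so were all 4 NK markers, which summed to 408 and 134. Of these NK sums, Klrd1 alone made up 395 and 134. Klrb1c, Ncr1 and Klra1 were near the floor, with 9, 7 and 7 reads in the wild-type library. They had 0 reads in the deficient library, which was 2.76-fold shallower. Of 3 CD4 T cell markers 2 were lower, with sums of 489.8 and 422 and Foxp3 higher. Of 5 myeloid markers 4 were lower and Mpeg1 was higher (127 and 185), so their sums were 260.1 and 266. Erythroid markers summed to 63.0 and 58.3, with Hbb-b1 and Hba-a1 lower and Alas2 higher (33.8 and 54.9). All 3 stromal markers were lower, with sums of 22.7 and 1.71, and Col1a1 and Col3a1 were at 0 in the deficient library. Their reads in the wild-type library were few, at 26 for Col1a1, 4 for Col3a1 and 9 for Cdh5. The part of age, sex, depth and these cells in the shift of the ribosomal protein genes was not tested.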

How the data were processed

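RNA sequencing covered 1 library per genotype. The submitters' processing notes name STAR version 2, DESeq and the genome build mm9, with no role or order. How reads were counted is not given in the sources used here. For each RefSeq transcript the authors deposited a normalized count (a signal), and they deposited a table with log2 fold changes and p-values. In both libraries 100% of the deposited signal values were whole multiples of the worth of 1 read (relative tolerance 0.0001), so whole reads were recovered, with size factors of 1.71 and 0.583. The row of Alg6 is shifted by an additional tab and was left out of the 33018 rows. The row with the highest mean stood for each symbol; the 84 genes had 103 rows, and 11 genes had several.

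The log2 ratio used a pseudocount of 10 and a minimum mean of 50. With 1 library per genotype, a count model has no residual degrees of freedom and no test was made. Folds carry exact 95% Clopper-Pearson counting intervals, and ratios between genes a log-normal counting interval; without molecular identifiers reads need not be separate molecules, so these cover counting error only. Coding lengths came from GENCODE M21 (GRCm38), matched for 80 of 80 compared genes. Named genes are the 5 highest and lowest log2 ratios, the 5 most and least abundant, fixed roles, paralogs, and the 4 largest of each list. Rpl12, Myc, Larp1, Rps12 and the genes sharing rows were named after their values were seen. A gene that the rule names is not reported here. Members and lists were chosen with earlier results of these data known. The procedure was tested on simulated libraries with counting noise only and with changes larger than those of the ribosomal protein genes. That test could not cover variation between mice or cultures. Python 3.11.15, numpy 2.4.6, pandas 2.3.3 and scipy 1.17.1 were used.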

Additional observations from a re-analysis of the deposited data

How the results depend on the processing

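The median log2 ratio of the ribosomal protein genes was 0.17 as reported, 0.083 when both libraries were scaled to equal totals and 0.12 when recentred on the median of all genes. The log2 ratio of their summed counts was 0.17 as reported, 0.084 at equal totals and 0.12 recentred. Genes at least 25% higher numbered 6 as reported, 2 at equal totals and 3 recentred, and 1 gene (Rpl11) was then at least 20% lower in both. Scaling to the summed ribosomal protein counts, an alternative chosen after seeing the data, gave a median of -0.00052 by construction, with 0 genes higher and 1 lower. A minimum mean of 4000, also added later, pseudocounts of 1 and 50, a minimum of 200 or none, and other transcript rows left the counts of genes past either fold within 1.5 times those reported. Of the other values (single genes, lists and counts above 0), 41 moved beyond their counting interval or by over 0.05 at equal totals and 35 when recentred, and no gene past the limit as reported changed direction. No paired analysis was possible because each genotype has a single library, and for the same reason no library could be left out. Depth of the deficient library limits the 4 barely read paralogs, which have at most 21 reads there.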
